A study of Taeniopygia guttata with 134 samples.

Results

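The response to lipopolysaccharide (LPS) was examined in a limbic forebrain region, labelled NST and matched to the bed nucleus of the stria terminalis of the study's design by its abbreviation, in male zebra finches (Taeniopygia guttata) that were kept alone. The comparison holds 12 libraries, chosen by their titles: 6 from isolated (ISO) males given LPS and 6 from isolated males given the control injection, which the labels code as S. The whole study holds 46 libraries of the NST, 45 of the hypothalamus (HY) and 43 of the nucleus taeniae (TN), in 4 social settings. Besides ISO these were males that stayed with a female they knew (KFC), that rejoined a female they knew (KF) and that met an unfamiliar female (NF). The design crosses injection with setting, which addresses whether company alters the response of the brain to LPS. Each library came from 1 bird, going by the number in the labels. The LPS birds were males 6, 8, 9, 14, 16 and 56, and the control birds were males 5, 12, 13, 50, 52 and 53. The sources used here give neither the age of the birds nor the dose of LPS or the delay before dissection.

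LPS is a component of the outer membrane of Gram-negative bacteria. In vertebrates it is sensed by Toll-like receptor 4 on innate immune cells, which then release cytokines, and signals from blood and vessels carry the response into the brain, where fever, reduced activity and social withdrawal follow. The bed nucleus of the stria terminalis in birds and mammals takes part in stress responses and in affiliative and sexual behaviour. It is dissected here as bulk tissue, so a change can come from neurons, glia, vessels or blood cells. In bulk samples more or fewer cells of a type and more or less RNA per cell cannot be told apart.

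Genes are known here by identifier only. The count table holds 18618 identifiers, none of which was found in the gene table used, so no gene can be given its name or role, and the labelled tissue could not be checked against marker genes. As a check without names, all 12 libraries correlated most with the median profile of the NST among the 3 regions (r from 0.966 to 0.980 across 14140 genes, which are not independent replicates). That profile came from libraries with the same label, so the check shows likeness among them and does not identify the tissue. Total counts ran from 8577422 to 10179392 in LPS libraries and from 8975669 to 11879211 in controls, and the difference of the means was within the spread between libraries (2-sided exact permutation p = 0.149).

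LPS raised the level of 163 genes and lowered that of 22 in the NST of isolated males, among 14386 genes tested (adjusted p under 0.05 in edgeR's quasi-likelihood test, with the Benjamini-Hochberg method over all of them). The calls made up 1.29% of the genes tested, 1.13% as rises and 0.153% as falls, and 9.34% had an unadjusted p under 0.05. Rises outnumbered falls and were also larger. Their median change was 1.66 on the log2 scale, or 3.16-fold, whereas the median fall was -0.64, which left 0.643 of the control level. Over all genes tested the median change was -0.0028.

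Most rises were more than 2-fold and most falls were less. Of the 163 rises, 69 were 2 to 4-fold, 36 were 4 to 8-fold and 23 exceeded 8-fold. A rise of 1.5 to 2-fold was found for 22 genes and a smaller one for 13. Of the 22 falls, 17 were less than 2-fold and 5 were larger. The genes that rose took up little of the transcriptome. They held about 0.253% ± 0.012 (SD, n = 6) of the scaled counts in control males, and about 0.585% ± 0.139 (SD, n = 6) in LPS males. The percentages are approximate, since scaled totals differ between libraries (scaling factors from 0.932 to 1.06). The lowest LPS library, at 0.429%, lay above the highest control library, at 0.268%. These genes were chosen for their difference, so the sums describe its size and carry no test.

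**Figure D1:**
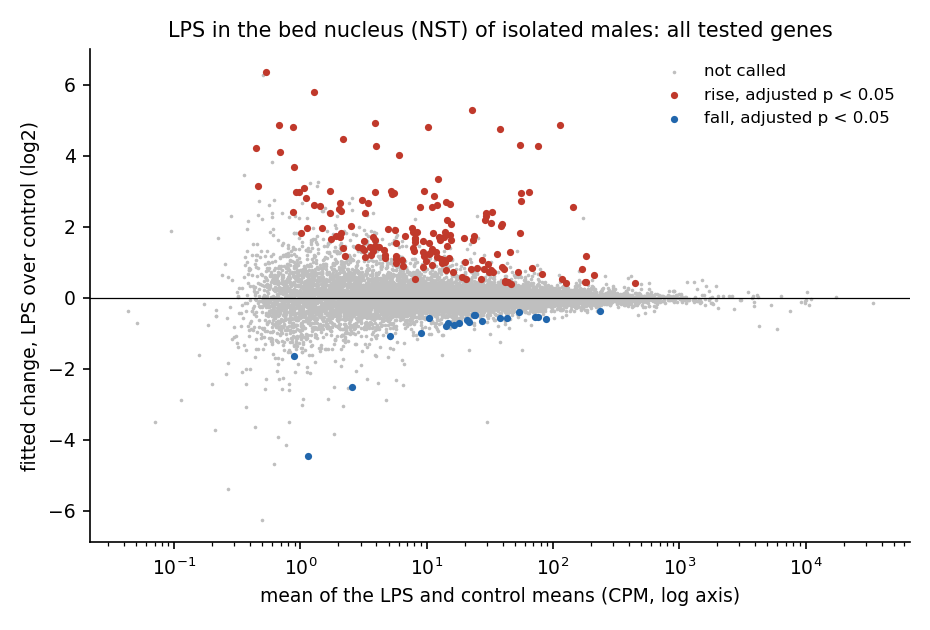
Fitted LPS change (log2) of each tested gene in the NST of isolated males against its mean level in scaled counts per library (CPM, log axis). The 163 rises (red) reach further from 0 than the 22 falls (blue), and most falls of genes above 10 CPM lie close to the axis.

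The calls were spread unevenly over levels of expression in control males, given here as CPM, the reads of a gene scaled to a common library size. Below 1 CPM in controls 36 of 883 tested genes rose (4.08%) and none fell. These 36 genes went from a median of 0.391 CPM in controls to 2.58 CPM after LPS, with a median change of 2.89. A gene this low in these controls entered the test only through libraries in which it was higher. The share of rises, their size and the lack of falls in this class are thus partly set by the filter. Over all 883 tested genes of the class the median change was 0.24, against -0.014 to 0.011 in the higher classes. Between 1 and 10 CPM 82 of 4117 genes rose (1.99%), with a median change of 1.58, and 4 fell. Between 10 and 100 CPM 38 of 7383 rose (0.515%), with a median change of 0.84, and 16 fell. At 100 CPM or more 7 of 2003 rose (0.349%), with changes from 0.42 to 1.18, and 2 fell. The class of 10 to 100 CPM, with 16 of the 22 falls, also holds 7383 of the 14386 genes tested. Falls made up 0.217% of its genes, against 0.0972% at 1 to 10 CPM and 0.0999% at 100 CPM or more. The 16 falls were small, with a median of -0.60. The median standard error over all tested genes shrank from 0.64 in the lowest class to 0.093 in the highest. The smallest rise called was 1.66 below 1 CPM and 0.53 at 1 to 10 CPM. It was 0.38 at 10 to 100 CPM and 0.42 at 100 CPM or more. How far precision set these sizes was not tested.

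**Figure D2:**
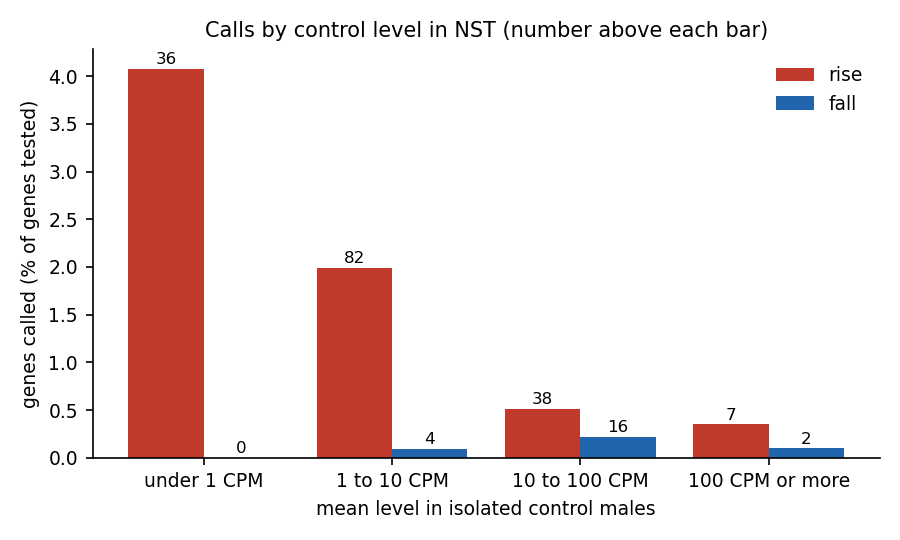
Share of tested genes called as a rise (red) or fall (blue), in percent, by mean level in isolated control males (CPM), with the number of called genes above each bar. The share that rose falls from 4.08% below 1 CPM to 0.349% at 100 CPM or more. The shares in the lowest class are partly set by the filter on low counts.

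For many of these genes the 2 groups of males did not overlap. All 6 LPS libraries lay above all 6 controls for 92 of the 163 rises, against 0.862% of all genes tested. In a further 47 rises 5 of the 6 LPS libraries lay above every control, in 20 rises 4 did, and in 4 rises 2 or 3 did. Among the 22 falls, 11 had every LPS library below every control, against 0.313% of all genes. Since these genes were called on the same libraries, the counts describe how the calls look in single birds.

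The size of the count rested in part on single birds, the strongest being LPS male 56. Leaving out 1 male at a time gave 116 to 232 calls in place of 185, the lowest without male 56 (103 rises and 13 falls). The falls were the less steady list, with 10 left without control male 5, 13 without LPS male 6, and 14 without LPS male 9, control male 50 or control male 52. The males carry numbers from 5 to 16 or from 50 to 56, and LPS male 56 was the only LPS bird of the higher range, beside 3 controls. The labels do not say what the numbers stand for. Among the 5 LPS and 3 control males of the lower range 40 genes passed (38 rises and 2 falls), all 40 of them also called with every male. The median change of the 163 rises was 1.52 there, against 1.66. With 1 LPS bird the higher range gives no value of its own. A fit to the 12 libraries alone called 116 genes, and 93 when the number range was added as a term. Of the 185 genes, 99 (53.5%) were called in the first of these and 83 (44.9%) in the second. In each of these fits every one of the 185 genes that could be tested kept its direction. The fits reuse birds on which the 185 genes were called, so kept directions and sizes are partly set by the choice.

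The rise with the largest log2 change among genes with a mean of at least 1 CPM was ENSTGUG00000013118, which was close to silent in controls. It had 2 reads in all in the 6 control libraries, from males 5 and 53, and 147 in the 6 LPS libraries. After LPS its level was 0.901 CPM in the lowest bird, 1.62 at the median and 6.10 in the highest, male 8, while no control exceeded 0.106 CPM. The groups did not overlap. The ratio of summed scaled counts was 78.3 (95% exact interval 21.3 to 652, counting error only), and the fitted log2 change was 5.79 (SE 1.15, edgeR adjusted p = 0.00291). Among males 5 to 16 only the log2 change was 5.89 and did not pass (edgeR adjusted p = 0.154).

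This gene also rose in KFC and KF males, with log2 changes of 8.47 (SE 1.49) and 6.73 (SE 1.23, edgeR adjusted p = 0.000482 and 0.000692). The KFC controls had no read of it, so its fitted change there depends on the prior count and is no measure of size. In NF males its change, 4.23 (SE 1.13), missed the threshold (edgeR adjusted p = 0.0768). In the hypothalamus of the same isolated males it averaged 0.805 ± 0.321 CPM after LPS and 0.0815 ± 0.200 in controls (SD, n = 6 each), which did not pass (log2 change 3.14, SE 1.23, edgeR adjusted p = 0.360). In TN it was too low to be tested, with 25 reads in the LPS libraries and 3 in the controls.

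The largest gain in level belonged to ENSTGUG00000006574. Its 6 control libraries ran from 0.680 CPM in male 50 through a median of 7.39 to 17.9 in male 53. After LPS the lowest bird, male 6, stood at 125 CPM, the median at 214 and the highest, male 8, at 303. Every LPS male was far above every control male, and within each group the birds differed more than 2-fold. The fitted log2 change was 4.86 (SE 0.75, edgeR adjusted p = 5.19e-05). The means were 219 ± 64 CPM after LPS and 7.42 ± 5.93 in controls (SD, n = 6 each). In control males 2003 tested genes reached 100 CPM, a level that every LPS male exceeded for this gene.

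ENSTGUG00000006574 also rose in the NST of each other setting and in both other regions of isolated males. In the NST its log2 change was 5.28 in KFC (SE 0.83), 4.82 in KF (SE 0.74) and 3.88 in NF (SE 0.71), and the difference between ISO and the mean of these settings was 0.20 (SE 0.78, edgeR adjusted p = 0.998). In isolated males it changed by 4.02 in HY (SE 0.74) and by 4.01 in TN (SE 0.71). Its level after LPS was 161 ± 71.6 CPM in HY and 105 ± 32 in TN (SD, n = 6 each). The NST change exceeded that in HY by 0.87 (SE 0.52) and that in TN by 0.80 (SE 0.52), and neither difference passed within males (edgeR adjusted p = 1 and 0.999).

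**Figure D3:**
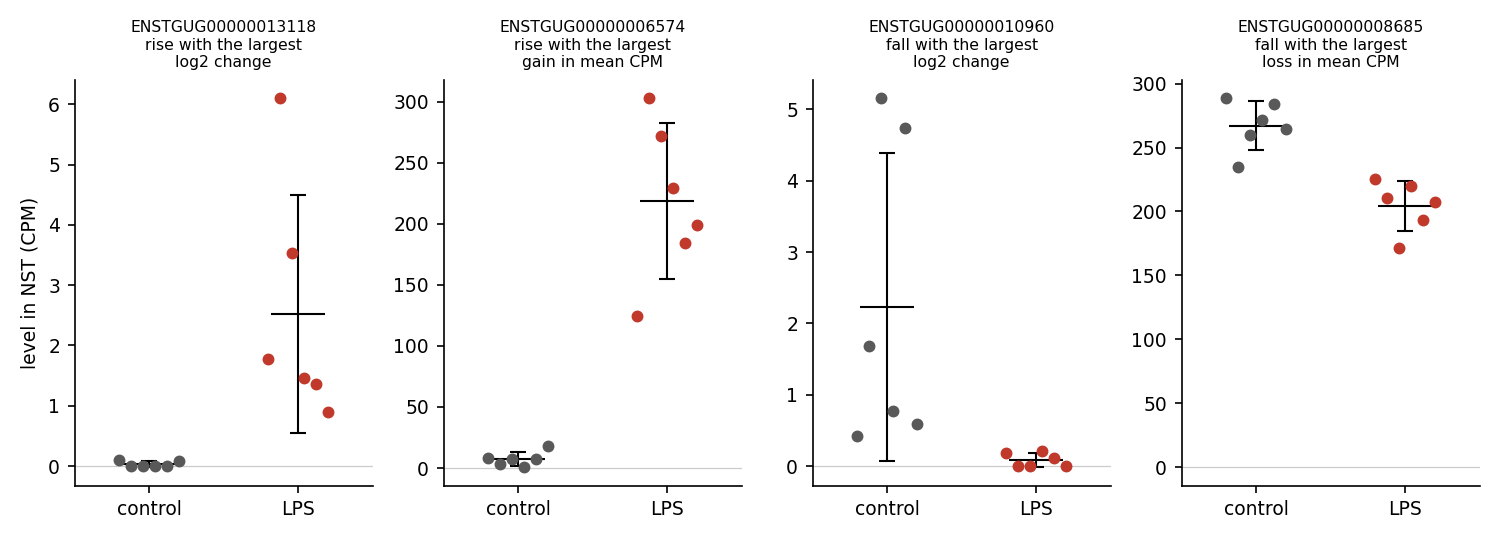
Level (CPM) of 4 genes in each NST library of isolated males, with the mean and SD of each group of 6 as bars. LPS and control males do not overlap for any of the 4, while control males spread widely for ENSTGUG00000010960, from 0.422 to 5.16 CPM.

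The fall with the largest log2 change, ENSTGUG00000010960, concerned a gene at a low level. Control males stood at 0.422 CPM at the lowest, 1.23 at the median and 5.16 at the highest, with males 13 and 52 well above the other controls. In LPS males it ran from 0 to 0.208 CPM, with 5 reads in all against 132 in controls. No LPS male reached the lowest control. The fitted log2 change was -4.47 (SE 1.20, edgeR adjusted p = 0.0454). It no longer passed when any of 9 of the 12 males was left out, with edgeR adjusted p from 0.0536 without LPS male 14 to 0.130 without control male 13. Nor did it pass among males 5 to 16 only or without the filter on low counts (edgeR adjusted p = 0.261 and 0.0542).

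In the other settings this gene did not pass, and LPS and control males overlapped in the NST of each. LPS males ran from 0.573 to 3.86 CPM in KFC, 0 to 2.75 in KF and 0.117 to 2.38 in NF. Control males ran from 0.296 to 4.14 CPM in KFC, 0.0988 to 10.6 in KF and 0 to 5.41 in NF. The log2 change of ENSTGUG00000010960 in the NST was 0.54 in KFC (SE 0.99), -1.32 in KF (SE 0.92) and -0.93 in NF (SE 0.95), with edgeR adjusted p from 0.701 to 0.973. Its difference between ISO and the mean of the other settings was -3.91 (SE 1.32) and did not pass (edgeR adjusted p = 0.936). In the same isolated males its fitted log2 change was -3.25 in HY (SE 1.04) and -3.27 in TN (SE 1.11), and neither passed (edgeR adjusted p = 0.157 and 0.175). In HY the LPS males averaged 0.293 ± 0.369 CPM and the control males 2.87 ± 2.88 (SD, n = 6 each). In TN the means were 0.189 ± 0.205 and 1.90 ± 1.99 CPM (SD, n = 6 each). The groups overlapped in both regions. The highest LPS male stood at 0.948 CPM in HY and 0.444 in TN, and the lowest control at 0.237 and 0.0832. Males 13 and 52 were the highest controls in both regions, as in the NST.

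The largest loss in level was that of ENSTGUG00000008685, an abundant gene with little spread. Controls ran from 235 CPM in male 12 through a median of 268 to 289 in male 5. LPS males ran from 171 through 209 to 225 CPM, so that the highest LPS bird lay just under the lowest control. The fitted log2 change was -0.39 (SE 0.09, edgeR adjusted p = 0.0207). It did not pass without LPS male 9 or control males 5 or 52 (edgeR adjusted p up to 0.0886). Nor did it pass among males 5 to 16 only or with the number range as a term (edgeR adjusted p = 0.374 and 0.0831). Its changes of -0.04 in KFC (SE 0.10), -0.20 in KF (SE 0.09) and -0.14 in NF (SE 0.09) did not pass, and neither did the difference between ISO and their mean, -0.26 (SE 0.11, edgeR adjusted p = 0.977). Isolated males had log2 changes of -0.26 in HY and -0.39 in TN (SE 0.11 each), which did not pass either (edgeR adjusted p = 0.372 and 0.0628).

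A single rise had no read in any of the isolated controls. It averaged 1.07 ± 0.79 CPM in LPS males (SD, n = 6), was detected in 5 of the 6, and was at least 21.7-fold higher against a floor of 3 counts over the control group. In the other settings of the NST it had 42 reads in all.

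Males kept in the other settings, with their own controls, allowed these genes to be looked up in other birds. All 46 NST libraries shared the filter, the scaling and the estimate of spread, so calls in ISO and elsewhere are not fully independent. In the NST of KFC, KF and NF males, averaged over the 3 settings, LPS raised 428 genes and lowered 181 (edgeR, 2.98% and 1.26% of 14386). Of the 163 genes that rose in isolated males, 160 were also higher after LPS in the other settings, against 48.4% of all genes. The test there was passed by 148 (90.8%, against 2.98% of all genes for a rise). The median change of the 163 was 1.42 in the other settings, against 1.66 in the isolated males on whom they were chosen. Of the 22 genes that fell, 21 were also lower in the other settings (against 51.6% of all genes), but 10 passed (45.5%, against 1.26%). The median change of the 22 was -0.34, against -0.64. No gene called in isolated males was called in the opposite direction elsewhere.

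Setting by setting the 163 rises followed the same course. In KFC males 87 of them passed (53.4%, against 0.876% of all genes for a rise), with a median change of 1.5. In KF males 104 passed (63.8%, against 1.12%), with a median of 1.51, and in NF males 63 passed (38.7%, against 0.577%), with a median of 1.16. All 3 other settings called 56 of the rises, and 153 had a change above 0 in every setting. A group of 48 passed in none of the other settings taken singly. Over all genes tested, at most 0.577%, the share in NF, can have passed as a rise in all 3. The share of all genes above 0 in every setting was not counted. Of the 22 falls 7 passed in KFC (against 0.132% of all genes for a fall), 4 in KF (0.195%) and 2 in NF (0.0765%), and 15 passed in none.

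The same held in the other direction, with genes chosen in the other settings and looked up in isolated males. Of the 428 genes that rose there, 405 had a higher level after LPS in ISO (94.6%, against 49.4% of all genes), with a median change of 0.75, against 0.81 in the settings in which they were chosen. Isolated males alone called 148 of them (34.6%, against 1.13% of all genes for a rise), and in 101 (23.6%, against 0.862%) the 6 LPS males all exceeded the 6 controls. Of the 181 falls, 161 were lower in isolated males (89.0%, against 50.6% of all genes), with a median change of -0.23, against -0.49. Isolated males called 10 of these (5.52%, against 0.153% of all genes for a fall). Over the 609 genes called in the other settings the changes correlated with those in ISO at r = 0.934, and over all 14386 genes at 0.460, with genes not being independent replicates.

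**Figure D4:**
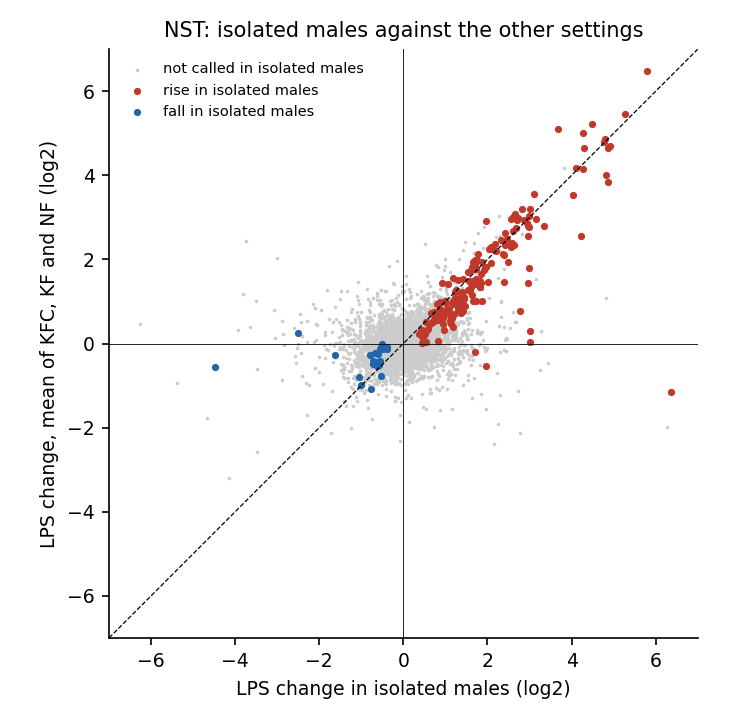
Fitted LPS change (log2) of each gene in the NST of isolated males against the mean change in KFC, KF and NF males, with genes called in isolated males as rises (red) or falls (blue) and the line of equal change dashed. Of the 163 rises 160 lie above 0 on the vertical axis, and the falls lie nearer to 0 there than on the horizontal axis.

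Tested directly, the response of isolated males differed from that of another setting for 1 gene. Against the mean of KFC, KF and NF no gene passed with edgeR (lowest adjusted p = 0.231), with 720 genes or 5% at an unadjusted p under 0.05, and DESeq2 called 2. Against KFC and NF singly no gene passed with edgeR, with 3.33% and 4.88% of genes at an unadjusted p under 0.05, and DESeq2 called 1 and 0. For the 15 rises and 12 falls that did not pass in the other settings, the lowest adjusted p of this difference was 0.665 in each list. A failure to pass there therefore does not show a response particular to isolation. The median standard error of this difference was 0.38 for the 163 rises. How small a difference could be seen was not tested.

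Between ISO and KF 1 gene passed (0.00695% of those tested, with 5.55% at an unadjusted p under 0.05). It lies outside the rule for named genes, and its changes were small. In ISO it stood at 57.2 ± 2.20 CPM after LPS and 49.5 ± 4.27 in controls, and in KF at 46.3 ± 4.53 and 57.7 ± 6.14 (SD, n = 6 each). Its log2 change was 0.21 in ISO (SE 0.07, edgeR adjusted p = 0.178) and -0.32 in KF (SE 0.07, adjusted p = 0.00544). The difference was 0.52 (SE 0.10, edgeR adjusted p = 0.0415). It did not pass with the other scaling of libraries, without the filter on low counts, or without ISO male 5, 8, 9, 13, 14, 16, 50, 53 or 56, where no gene passed.

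The 15 rises and 12 falls not called in the other settings were looked up in the hypothalamus and nucleus taeniae of the same isolated males. Of the 15 rises, 14 could be tested in each region. All 14 were higher after LPS in both, with a median change of 0.74 in HY and 0.94 in TN. Over all genes tested the medians were -0.0022 and -0.0016. In the NST of the other settings the median of the 15 was 0.12, and 12 of them were higher there. Of the 12 falls, 12 were lower in HY and 10 in TN, with medians of -0.45 and -0.43. In the NST of the other settings 11 of them were lower, with a median of -0.13. Both lists were chosen for not passing in the other settings, so small changes there are partly set by the choice. In HY 2 of the 14 rises and 1 of the 12 falls passed, against 0.985% and 0.118% of all genes, and in TN 3 of each passed, against 0.891% and 0.164%. The regions came from the same birds, so these values are no independent support.

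Most of the 185 genes moved in the same direction in the 3 regions of isolated males, though fewer passed in HY and TN. In HY 98 of the 161 rises that could be tested passed (60.9%, against 0.985% of all genes for a rise), with a median change of 1.41. In TN 88 of 160 passed (55%, against 0.891%), with a median of 1.32. Of the 160 rises tested in all 3 regions, 78 passed in each, 20 in the NST and HY, 10 in the NST and TN, and 52 in the NST alone. Of these 52, 51 were also higher after LPS in both other regions, with medians of 0.63 and 0.66 in HY and TN, against 1.17 in the NST. Over all genes tested 130 passed as a rise in TN, so no more than that can have passed in all 3 regions. Of the 22 falls 5 passed in HY (against 0.118% of all genes for a fall) and 7 in TN (0.164%), 3 of them in both. The other regions called none of the remaining 13. Of these 13, 11 were also lower after LPS in both, with medians of -0.48 in HY and -0.39 in TN, against -0.67 in the NST. Over all genes tested 17 passed as a fall in HY, so no more than that can have passed in all 3 regions.

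Within males the LPS effect in the NST differed from that in HY for 0 of 15097 genes and from that in TN for 0 (edgeR with male as a block), with 2.48% and 4.71% of genes at an unadjusted p under 0.05. Without the block, which sets aside that the regions came from the same birds, the counts were 0 and 0 as well. That fit had 136 and 293 genes at that level. A fit with the block to the 36 libraries of isolated males called 2 and 0, with 627 and 1062 genes at that level. The 163 rises had a median difference of 0.21 from HY and 0.24 from TN, against -0.0011 and 0.0031 over all genes. They were chosen in the NST, so a higher value there is partly set by the choice.

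Single birds differed in how far their genes moved. To describe this, the 428 rises and 181 falls of the other settings were followed in each isolated bird. The value given is the median deviation from the mean of the control birds in log2 CPM. The LPS change in isolated males did not enter the choice of these genes, but their libraries shared its filter, scaling and estimate of spread. For the rises the LPS males stood, in ascending order, at 0.36 (male 16), 0.46 (male 14), 0.59 (male 6), 0.77 (male 9), 0.98 (male 8) and 1.01 (male 56). Each control male was set against the other controls, and these ran from -0.13 to 0.15. All 6 LPS birds thus lay above all controls.

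Males 8 and 56 also held the upper end gene by gene. Among the LPS males, male 8 had the highest level of 80 of the 163 rises and male 56 of 50, whereas male 16 had the lowest level of 64 and male 6 of 43. Males 8 and 56 lay above every control for 161 rises each, male 16 for 121 and male 14 for 128. Over all genes tested, each LPS male lay above every control for 14.5% to 17.2%. The 163 rises were called on these same birds, so these counts only describe how the birds differ. Among controls, male 5 had the highest level of 56 of the rises. For genes that rose, the spread was wider between these LPS birds than between these controls. The genes were called on the same birds and are not independent replicates, so this describes the birds and was not tested. Over the 127 rises with a control mean of at least 1 CPM, the median SD between males was 0.51 on the log2 scale after LPS and 0.35 in controls, and it was larger after LPS for 71.7% of them. Over the 13503 tested genes of that level it was 0.27 and 0.26, and larger after LPS for 51.6%.

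**Figure D5:**
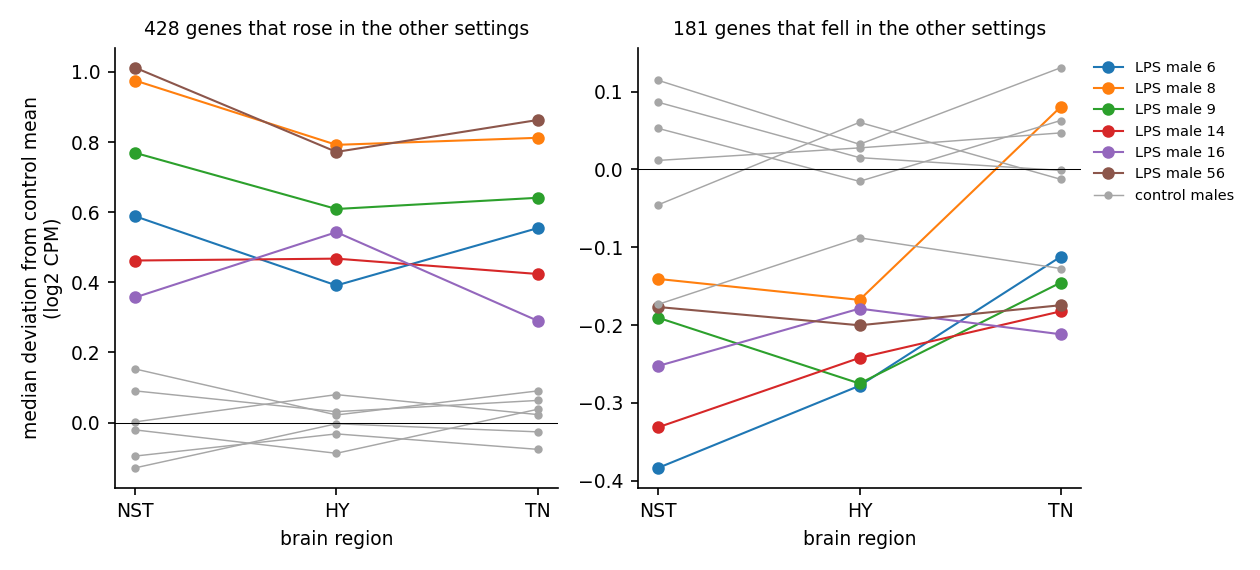
Median deviation (log2 CPM) of each isolated male from the control mean of its region, over the genes that rose (left) or fell (right) in the NST of the other settings, with the 3 regions of a bird joined by a line (LPS males coloured, controls grey). On the left all LPS males lie above all controls in each region, with males 8 and 56 highest; on the right the groups overlap in NST and TN.

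In the other regions of the same birds the order was similar at the top. In HY the deviation of the rises ran from 0.39 (male 6) to 0.79 (male 8), with male 56 at 0.77, and in TN from 0.29 (male 16) to 0.86 (male 56), with male 8 at 0.81. Male 16, the lowest in NST and TN, was in the middle of the group in HY, at 0.54.

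The genes that fell followed another order and separated the groups less well. In the NST their median deviation in LPS males ran from -0.38 (male 6) and -0.33 (male 14) to -0.18 (male 56) and -0.14 (male 8). Control male 50, at -0.17, lay among the LPS birds, while the other controls ran from -0.05 to 0.11. The 2 birds with the largest rises had the smallest falls of the 6. This is an order among 6 birds and was not tested. In HY all LPS males, from -0.28 to -0.17, lay below all controls, the lowest of which stood at -0.088. In TN LPS male 8 stood at 0.08, above 5 of the 6 controls.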

How the data were processed

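Per the labels' protocols, libraries of poly(A) RNA from each dissected region were prepared with NEBNext Ultra chemistry. The authors deposited raw read counts per gene, and the submitters' processing notes name HISAT2 and HTSeq 0.6.1. Which build, annotation and strand setting were used is not stated in what was at hand. How reads from overlapping or near-identical genes were counted could not be checked here. Identifiers were used as deposited, since 0 of 18618 matched the gene table, and the gene and marker lists prepared for named genes were not used.

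Counts of the 46 NST libraries (8 groups) were filtered with filterByExpr (a count of 10, a total of 15), scaled by TMM and fitted with edgeR 4.0.16 (robust quasi-likelihood, trended dispersion) in R 4.3.3. Totals of 7902418 to 11879211 counts limit precision for low genes. p-values are 2-sided and Benjamini-Hochberg adjusted over all genes tested, with a threshold of 0.05. SE, SD and n are given beside values. Each SE was derived from the test, as the size of the log2 change divided by the square root of the F value. It is therefore approximate. CPM are TMM-scaled. Region differences were fitted over all libraries with the male as a block: the design text says that all regions were dissected from each male's brain, and the number in the label was taken to mark the male. LPS and control males share no number, so the LPS comparison itself is unpaired. Its p-values rest on a spread between birds within groups that was estimated over all 46 NST libraries, beyond the 12 of isolated males. All 66 pairs of the 12 libraries differed by more than counting noise (chi-square per gene of at least 12.2). Alternatives used DESeq2 1.42.0, other scalings, filters and sets of libraries. The fits were also run on simulated counts with known changes, and the outcome is not reported here. Intervals and floors cover counting error only.

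Named genes were, among called genes with a mean of at least 1 CPM over the 12 libraries, the rise and the fall with the largest log2 change and the rise and the fall with the largest change in mean CPM. The comparison, the lists and the alternatives were chosen with earlier results of these data known.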

Additional observations from a re-analysis of the deposited data

Results flagged for a closer look

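In the nucleus taeniae of isolated males, LPS male 8 stood apart from the other 5 LPS males in the genes that had fallen in the NST of the other settings, with a median deviation of 0.0803 (log2 CPM), whereas the others ran from -0.21 to -0.11. It was the only one of 26 groups of samples checked in which a sample lay this far from the rest. Chance gives about 1 such group in 20, so 1 among 26 is near what chance gives. Between isolated males and males that rejoined a known female, 1 gene differed in its LPS effect in the NST, by 0.524 on the log2 scale (edgeR adjusted p = 0.0415), with a rise in level of 0.21 that did not pass in ISO and a fall in KF.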

How the results depend on the processing

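The 185 calls in isolated males were 185 with DESeq2's size factors in edgeR, 182 without the filter, 186 without 5 NST libraries of other settings that had stood apart in an earlier analysis, and 250 with DESeq2, which shared 184. The count was 116 in a fit to the 12 libraries alone, 93 with the number range as a term and 40 with males 5 to 16 only. These fits shared 99, 83 and 40 genes with the 185. The first 2 have fewer residual degrees of freedom and the last fewer samples. The number ranges were also uneven between LPS and control males. How far any of these lowered the counts was not tested. Leaving out 1 male gave 116 to 232. Of 72 refits of the 4 named genes, 55 kept the call, 17 lost it and 0 reversed. The refits reuse birds on which the genes were called, so a kept direction is partly set by the choice. ENSTGUG00000013118 and ENSTGUG00000010960 fell under the filter in the fits to 12 libraries, which gave no value for them. For differences between settings, DESeq2 called 2 genes against the mean of the others, 1 against KFC and 2 against KF. The count against KF was 0 with DESeq2's size factors in edgeR, 0 without the filter, 0 without the 5 libraries, and 0 to 2 without single males; the cause was not tested. For differences between regions with male as the replicate block, all libraries gave 0 against HY and 0 against TN, as did the fit with no replicate block (0 and 0). The 36 libraries of isolated males gave 2 and 0, and 0 to 3 and 0 to 1 without single males. Leaving out males was done in this fit after the data were seen, and was not run in the fit to all libraries. At 1 to 10 CPM in controls the median standard error was 0.35 and the smallest rise called was 0.53 on the log2 scale. How far depth or the spread between birds limits calls there was not tested.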
